A study of Bos taurus with 20 samples.

Results

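The glucocorticoid receptor (NR3C1), the enzymes that make and remove active cortisol inside cells (HSD11B1 and HSD11B2) and a pair of genes that the receptor is known to switch on (FKBP5 and TSC22D3) were followed in the endometrium of 10 cows, each biopsied early and late after calving. The members were the array probes whose gene name in the scanner output was one of these 5 symbols. This gave 14 of the 43653 probes on the array and 5 of its 25400 genes. There were 2 probes each for NR3C1, HSD11B1 and HSD11B2, and 4 each for FKBP5 and TSC22D3. All 14 met the minimum for testing, a signal that the scanner software called well above background on 8 or more of 20 arrays. On the whole array 33763 probes met it, and these stand for 19444 genes. A further 2 probes carry a description as glucocorticoid receptor but another gene name, and they are given beside NR3C1 as probes outside the rule.

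Cortisol reaches tissues through the blood and crosses cell membranes, and cells then adjust how much of it the receptor sees. HSD11B1 mainly converts inactive cortisone back to cortisol, whereas HSD11B2 oxidises cortisol to cortisone and so protects cells from it. Bound cortisol releases the receptor from its chaperone complex, and the receptor then moves to the nucleus, where it raises some genes and represses others, inflammatory genes among them. FKBP5 is a chaperone-bound immunophilin that lowers the receptor's affinity for its hormone and is itself induced by the receptor, and TSC22D3 (also called GILZ) is an induced anti-inflammatory leucine zipper protein. In the uterus, progesterone is known to act on several of the same genes, FKBP5 among them.

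Early biopsies were taken between day 42 and day 86 after calving (mean 60.1 ± 13.3, SD, n = 10) and late biopsies between day 343 and day 436 (mean 388.9 ± 27.5, SD, n = 10). The animals were female cattle (Bos taurus) with no treatment named in the labels, and each gave 1 sample per period. Per the design text, tissue came from the uterine horn on the corpus luteum side, 7 days after oestrus, so the cycle day was matched by design. The late sample always followed the early sample, so age and sampling order cannot be told apart from the interval after calving.

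Levels are log2 signals relative to the array's 75th percentile, so that 0 is the 75th percentile, and a change is late minus early within a cow. The signal of a probe depends on the probe as well as on the RNA, so levels of different probes are not compared, and raw signals are given only to show how far a probe stood from background. The share of noncontrol spots called well above background ran from 71.8% to 80.2% over the arrays, and no spot was saturated. Markers of the labelled tissue were present: 7 of 7 epithelial markers on the array and 9 of 9 stromal fibroblast markers passed the filter. The early array of cow 4 stood apart from the other early arrays. Its median correlation with the arrays of its own period was 0.941, against 0.965 for early cow 9, 0.976 to 0.985 for the other 8 early arrays and 0.974 to 0.985 for the late ones. Of 19304 genes with a value on all early arrays, early cow 4 was the lowest in 25.4% and the highest in 25.9%. The change of each of the 5 genes is therefore given with and without this cow.

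The sequences show where on each transcript the signal was read, since probes of a gene at different places are compared below. Those shown are the 60-base probes in coding sequence, each with at least 1 reading frame free of stop codons, written 5′ to 3′ in lower case with no part marked. Probes toward the 3′ ends of the transcripts are not printed. Some of these, A_73_101467 of HSD11B2 among them, also have a stop-free frame, so such a frame alone does not mark coding sequence. The coding position was not checked against a protein sequence. Sequences and positions are those of the scanner output, on the HGSC Btau_3.1 build. The first NR3C1 probe represents the gene in the tests and lies at chr7:53963699-53963758 on the minus strand. The second lies upstream at chr7:53979833-53979892. The third, outside the rule, lies farther upstream at chr7:53985788-53985847 and reads through the region that encodes the receptor's DNA-binding domain. The HSD11B1 probe lies at chr16:71727832-71727891 on the minus strand and the FKBP5 probe at chr23:9875301-9875360 on the minus strand. The design leaves the TSC22D3 probe unmapped.
NR3C1 A_73_P110856: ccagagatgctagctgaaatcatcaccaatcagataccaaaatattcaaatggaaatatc
NR3C1 A_73_P085351: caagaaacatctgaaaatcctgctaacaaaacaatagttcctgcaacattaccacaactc
NR3C1 by description A_73_P085356: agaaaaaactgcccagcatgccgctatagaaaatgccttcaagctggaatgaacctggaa
HSD11B1 A_73_P304316: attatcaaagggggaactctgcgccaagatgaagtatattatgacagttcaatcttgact
FKBP5 A_73_P061936: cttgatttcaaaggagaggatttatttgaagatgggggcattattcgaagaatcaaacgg
TSC22D3 A_73_P297416: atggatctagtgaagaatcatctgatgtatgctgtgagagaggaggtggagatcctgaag

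Late was compared with early within cows to ask how the endometrium differs between the periods. None of the 5 genes passed an adjusted p of 0.05 in limma with cow as a block, where 255 of 19444 genes did (1.31%; 105 higher late, 0.54%, and 150 lower late, 0.771%). This balance depended on the scaling: 144 were higher and 127 lower with normexp background correction, 180 and 169 with quantile normalization, and 158 and 154 with scaling to the median of detected probes. At an unadjusted p under 0.05, 3 of the 5 would count (NR3C1, HSD11B2 and FKBP5), as would 4380 of all 19444 genes. The estimates for NR3C1, HSD11B1 and HSD11B2 were lower late, those for FKBP5 and TSC22D3 higher late, and the median change of all genes was 0.02 on the log2 scale. Without cow 4, 1 of the 5 passed, HSD11B2, where 147 of all genes passed (0.756%).

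**Figure D1:**
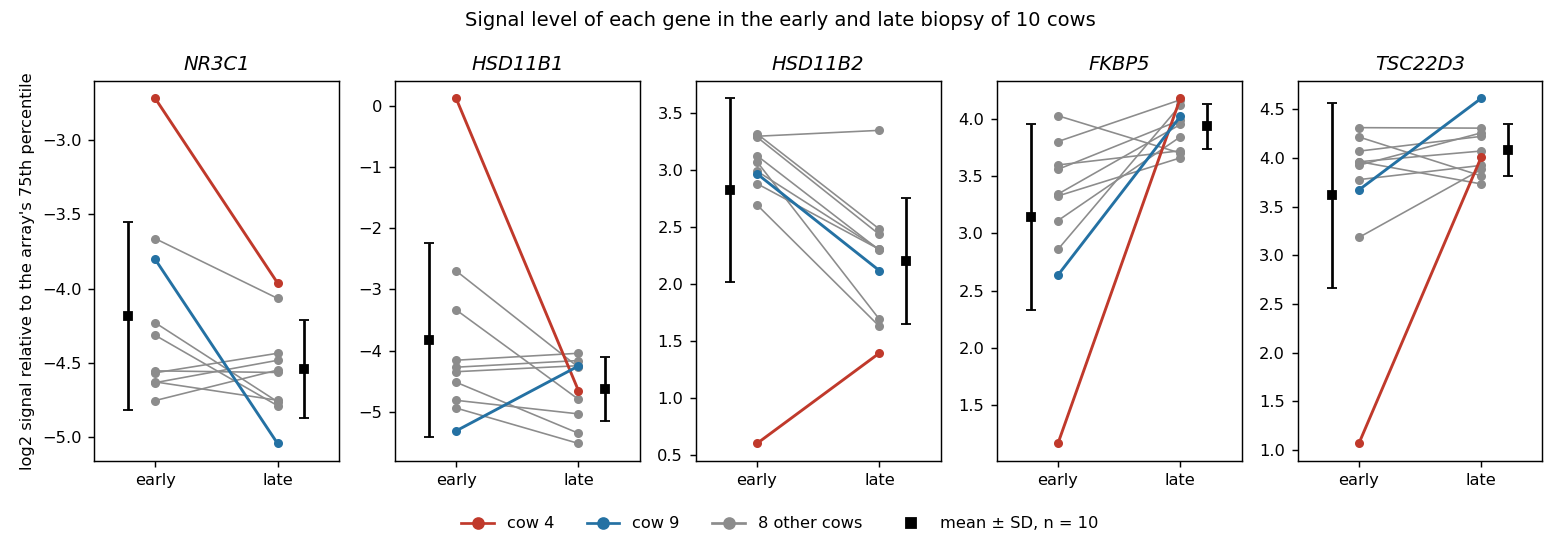
Level of each of the 5 genes in the early and the late biopsy of each cow, as log2 signal relative to the array's 75th percentile; each line joins the samples of a cow, and the squares with bars are the mean ± SD of 10 cows. Early cow 4 lies away from the other 9 early values in every panel, above them for NR3C1 and HSD11B1 and below them for HSD11B2, FKBP5 and TSC22D3.

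HSD11B1, the enzyme that regenerates cortisol, was measured by the probe A_73_P045781 at chr16:71727701-71727760. Its early level ran from -5.31 in cow 9 through a median of -4.31 to 0.12 in cow 4, and its late level from -5.52 in cow 3 through -4.46 to -4.04 in cow 1. The early and late ranges overlapped, and outside cow 4 the highest early value was -2.70, in cow 10. The mean level was -3.83 ± 1.58 early and -4.63 ± 0.52 late (SD, n = 10). It was lower late in 6 of 10 cows. The change was -0.81 ± 0.45 (SE; 95% interval -1.80 to 0.19; adjusted p = 0.308 in limma). Here as for every gene below, the biopsies are bulk tissue, so fewer cells of a type and less RNA per cell cannot be told apart.

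The early sample of cow 4 held a processed HSD11B1 signal of 2131 units, against 43.7 to 278.7 in the other 9 early samples. That cow's late sample held 74.1 units, within the range of the other late samples, and its change was -4.78 on the log2 scale. Without cow 4 the mean HSD11B1 change was -0.37 ± 0.25 (SE, n = 9; adjusted p = 0.422 in limma), and the remaining changes ran from -1.58 in cow 10 to 1.06 in cow 9. The HSD11B1 probe in the reading frame printed above was also highest in early cow 4. That sample stood at 0.02 on it, the other cows' changes ran from -1.77 to 0.72, and the change over 10 cows was -1.01 ± 0.45 (SE; adjusted p = 0.205 in limma over all 33763 probes on their own, of which 378 passed, 1.12%, and none of the 14). Without cow 4 it was -0.56 ± 0.24 (SE, n = 9; adjusted p = 0.207 in limma).

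HSD11B2, the enzyme that inactivates cortisol, had the smallest unadjusted p of the 5 (p = 0.00514 in limma). The probe A_73_101467 at chr18:34066138-34066197 on the plus strand represented it. Its early level ran from 0.60 in cow 4 through a median of 3.03 to 3.32 in cow 10, and its late level from 1.39 in cow 4 through 2.30 to 3.35 in cow 1. Outside cow 4 the early values were close together, between 2.70 and 3.32, and 8 of the 9 late values of those cows lay below 2.5. Means were 2.83 ± 0.81 early and 2.20 ± 0.55 late (SD, n = 10). The level was lower late in 8 of 10 cows, and the exceptions were cow 4 and cow 1, whose changes were 0.79 and 0.05.

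Over 10 cows the HSD11B2 change was -0.62 ± 0.18 (SE; 95% interval -1.02 to -0.23; adjusted p = 0.0934 in limma), that is 0.649 of the early signal. Without cow 4 HSD11B2 fell, with a mean change of -0.78 ± 0.12 (SE; adjusted p = 0.0243 in limma), or 0.582 of the early signal, in 8 of 9 cows. Without cows 4 and 9 the change was -0.77 (adjusted p = 0.0349 in limma). Leaving out any other cow gave no adjusted p under 0.05. The gene's other probe, A_73_P272061, which starts at base 1573 of the transcript against 1764 for the first, changed by -0.73 ± 0.20 and was lower late in 9 of 10 cows (adjusted p = 0.0791 over all probes in limma). On this probe cow 4 alone was higher late, by 0.88, so leaving it out leaves 9 of 9 cows lower by selection. In that fit, added after seeing the data, the level fell by 0.91 on the log2 scale (adjusted p = 0.0201 in limma over all probes, of which 168 passed, 0.498%).

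Since the enzymes run opposite reactions, their changes were set against each other within each cow. The HSD11B1 change minus the HSD11B2 change ran from -5.57 in cow 4 through a median of 0.48 to 1.91 in cow 9 and was above 0 in 7 of 10 cows. The mean was -0.18 ± 2.04 (SD; 95% interval -1.64 to 1.28), with an exact two-sided sign-flip p of 0.922, where 0.00195 is the smallest that 10 cows allow. The mean turned to 0.42 without cow 4 (exact sign-flip p = 0.160, above 0 in 7 of 9 cows) and to 0.23 without cows 4 and 9 (exact sign-flip p = 0.320). Under normexp background correction the mean was 0.043 with all 10 cows. The sign of the mean therefore rests on cow 4 and on the background correction, and the interval over 10 cows includes 0.

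NR3C1, the receptor itself, was represented by the first probe printed above. Its early level ran from -4.75 in cow 3 through a median of -4.43 to -2.72 in cow 4, and its late level from -5.04 in cow 9 through -4.56 to -3.96 in cow 4. The ranges overlapped, with 3 early values above every late value and 3 late values below every early value. Means were -4.19 ± 0.63 early and -4.54 ± 0.33 late (SD, n = 10). The level was lower late in 7 of 10 cows, and the change was -0.35 ± 0.16 (SE; 95% interval -0.70 to -0.0050; adjusted p = 0.216 in limma). Cows 4 and 9 had the same change, -1.24, and the other 8 cows lay between -0.53 and 0.21. Without both cows the mean change was -0.13 (adjusted p = 0.485 in limma), and without cow 4 alone -0.25 (adjusted p = 0.329).

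The representing NR3C1 probe had a median processed signal of 81.1 units. The second, A_73_P085351, had 19.0 units and was called above background in 8 early and 4 late samples. Its change was -0.08 ± 0.13 (SE; adjusted p = 0.719 in limma), and its values lay near the detection limit. The probes outside the rule were well clear of background. A_73_P085356 in the DNA-binding domain had a median signal of 2366 units, changed by -0.47 ± 0.17 and was lower late in 8 of 10 cows (adjusted p = 0.140 over all probes in limma). A_73_118430, at chr7:53962840-53962899 on the 3′ side of the others, had 1480 units, changed by -0.46 ± 0.16 and was lower late in 9 of 10 cows (adjusted p = 0.130). All 4 estimates over 10 cows were below 0, none passed the threshold, and cow 4 had the most negative change on each. Without cow 4 the changes on the second probe and on the probes outside the rule were 0.00053, -0.35 and -0.34 (n = 9; adjusted p = 0.998, 0.199 and 0.171 in limma).

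**Figure D2:**
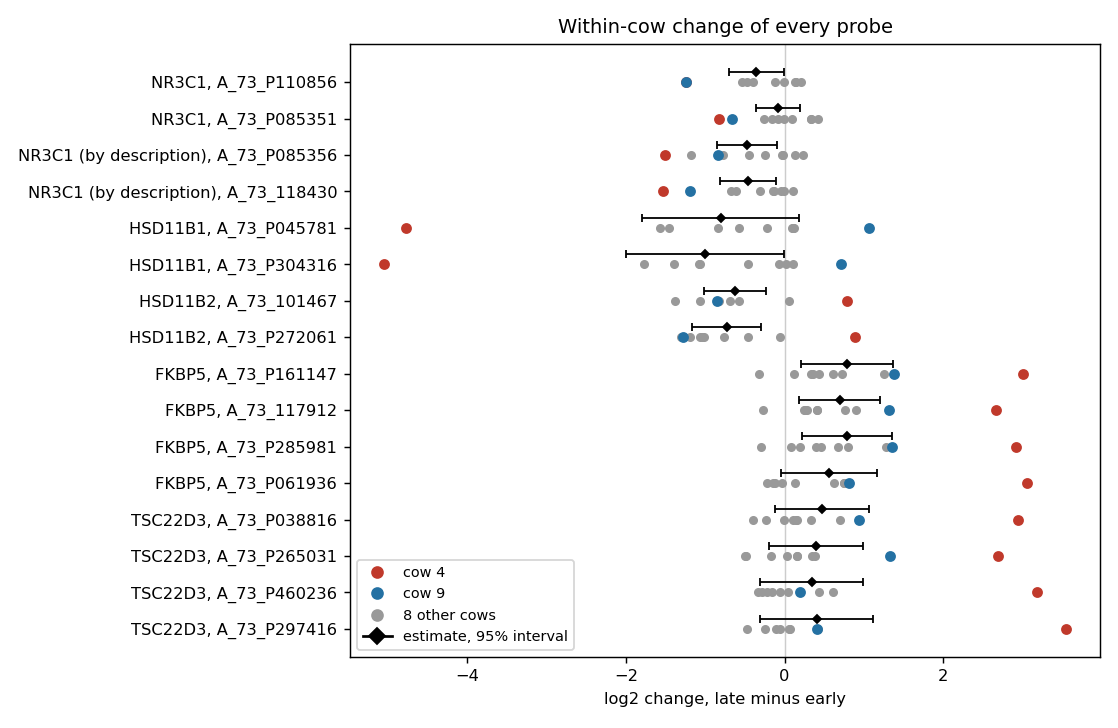
Late minus early log2 change of every probe of the 5 genes and of the 2 probes described as glucocorticoid receptor; circles are the 10 cows, and diamonds with bars are the limma estimate with its 95% interval. Cow 4 has the most negative change on all NR3C1 and HSD11B1 probes and the most positive one on all HSD11B2, FKBP5 and TSC22D3 probes, from -5.05 for HSD11B1 to 3.55 for TSC22D3.

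FKBP5, the receptor-induced immunophilin, was represented by the probe A_73_P161147 at chr23:9836364-9836423 on the minus strand. Its early level ran from 1.17 in cow 4 through a median of 3.33 to 4.03 in cow 5, and its late level from 3.66 in cow 6 through 3.97 to 4.18 in cow 4. The late values were close together, and 8 of the 10 early values lay below the lowest late value. Means were 3.14 ± 0.81 early and 3.93 ± 0.20 late (SD, n = 10). Without cow 4 the SD was 0.443 early and 0.186 late, so the narrower late spread was seen without that cow too. The difference in spread was not tested.

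The FKBP5 level was higher late in 9 of 10 cows, the exception being cow 5 with a change of -0.33. The change was 0.79 ± 0.27 (SE; 95% interval 0.21 to 1.37; adjusted p = 0.125 in limma), a 1.73-fold higher late signal (95% interval 1.16 to 2.59). Cow 4 contributed a change of 3.01, cow 9 of 1.38 and cow 3 of 1.26, and the other 7 cows lay between -0.33 and 0.73. Without cow 4 the FKBP5 change was 0.55 ± 0.16 (SE, n = 9; adjusted p = 0.112 in limma), 1.46-fold. The other FKBP5 probes start at bases 402, 1972 and 3587 of their transcripts, where the first starts at 3496. Their changes were 0.56, 0.79 and 0.70 with adjusted p between 0.112 and 0.239 over all probes in limma. The probe at base 402, in the reading frame printed above, was higher late in 6 of 10 cows and the others in 9 of 10. Without cow 4 the changes of these 3 probes were 0.28, 0.55 and 0.48 (n = 9; adjusted p = 0.247, 0.109 and 0.107 in limma), and the probe at base 402 was higher late in 5 of 9 cows.

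TSC22D3, the induced leucine zipper protein, was represented by the probe A_73_P038816, unmapped on the build. Its early level ran from 1.07 in cow 4 through a median of 3.94 to 4.31 in cow 2, and its late level from 3.73 in cow 6 through 4.04 to 4.61 in cow 9. Outside cow 4 the early values ran from 3.18 to 4.31 and the late values from 3.73 to 4.61, so the ranges overlapped. Over 10 cows, 3 early values lay below every late value and 1 late value lay above every early value. Means were 3.62 ± 0.95 early and 4.08 ± 0.27 late (SD, n = 10). The level was higher late in 7 of 10 cows with a change of 0.47 ± 0.27 (SE; 95% interval -0.13 to 1.07; adjusted p = 0.323 in limma). Cow 4 changed by 2.94, and without it the mean was 0.19 ± 0.13 (SE, n = 9; adjusted p = 0.419 in limma), a fold of 1.14. The other 3 TSC22D3 probes changed by 0.34 to 0.40 and were higher late in 5 to 7 cows, with adjusted p of 0.390 to 0.498 over all probes. Without cow 4 their changes were 0.14, 0.02 and 0.05 (n = 9; adjusted p = 0.639, 0.909 and 0.786 in limma), so the size of the TSC22D3 estimate rests on cow 4 on every probe.

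The within-cow changes of FKBP5 and TSC22D3 went together. Over 10 cows Pearson's r was 0.973 (permutation p = 4e-05, adjusted 4e-04 over the 10 pairs of members) and Spearman's rho was 0.867 (permutation p = 0.00221, adjusted 0.0221). Cow 4 had the highest change of both genes, cow 9 the next and cow 3 the next, and cow 5 had the lowest of both. Without cow 4, r was 0.928 (exact permutation p = 0.00086, adjusted 0.0086 over the pairs, n = 9). Without cows 4 and 9, the farthest from the median on both axes, r was 0.888, with an exact permutation p of 0.00732 and 0.0732 adjusted over the pairs (n = 8). Among 19234 other genes, 1 had changes more like those of FKBP5 than TSC22D3 had, 16 did without cow 4 and 36 without cows 4 and 9. In the other direction 10, 97 and 121 genes had changes more like those of TSC22D3 than FKBP5 had. No slide held both samples of a cow, so no value within a slide could be had.

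**Figure D3:**
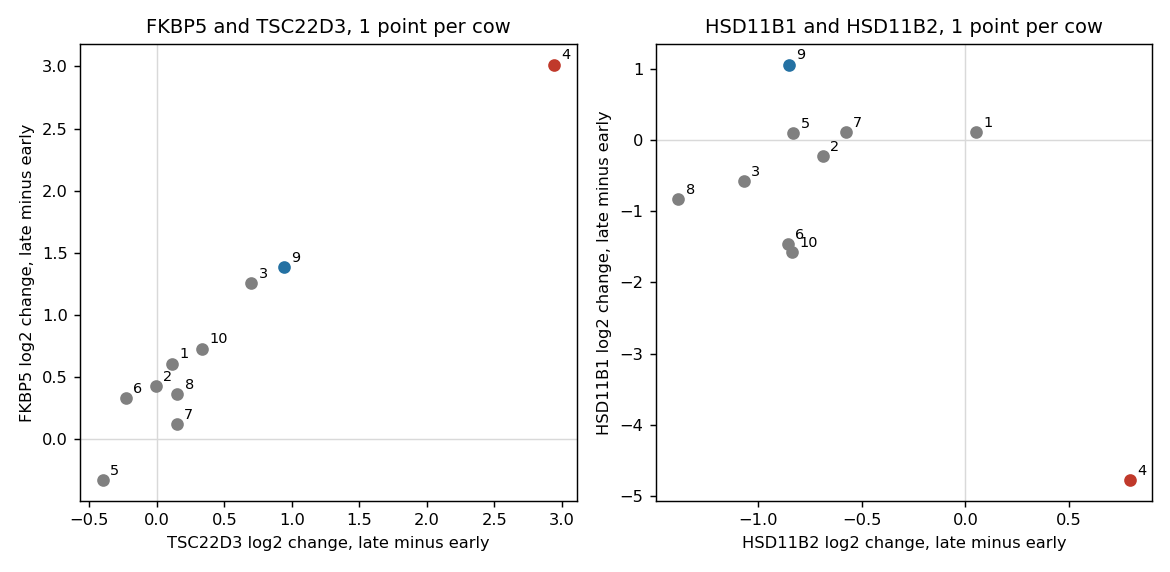
Late minus early log2 changes of FKBP5 against TSC22D3 (left) and of HSD11B1 against HSD11B2 (right), 1 point per cow with its number. The FKBP5 and TSC22D3 changes line up from cow 5 to cow 4 (r = 0.973), and in the right panel cow 4 lies alone at an HSD11B1 change of -4.78 and an HSD11B2 change of 0.79.

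No other pair of the 5 genes passed an adjusted p of 0.05 by r or by rho. HSD11B1 and HSD11B2 changes had r = -0.60 (permutation p = 0.0940, adjusted 0.104) and rho = 0.12 (p = 0.757, adjusted 0.981), and r was 0.34 without cow 4, -0.61 without cow 9 and 0.49 without both, so the pooled value rests on cow 4. NR3C1 and TSC22D3 changes had r = -0.72 (permutation p = 0.0129, adjusted 0.0645) and rho = -0.55 (p = 0.105, adjusted 0.517), with r = -0.58 without cow 4 and -0.11 without cows 4 and 9. For the remaining 7 pairs r lay between -0.73 and 0.69 with adjusted p from 0.0977 to 0.442. Without cow 4, r of these pairs lay between -0.56 and 0.32 (exact permutation, adjusted p from 0.383 to 0.820). The sign turned for HSD11B1 and for HSD11B2 with both FKBP5 and TSC22D3, and for NR3C1 with HSD11B1. It stayed negative for NR3C1 with HSD11B2 and with FKBP5.

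As a description without a test, the genes whose 10 changes correlated most with each member were looked up among 19235 genes. For FKBP5 these were ZNF461 (r = 0.977), TSC22D3 and a transcript named only by an identifier. For TSC22D3 they were SOD2, the mitochondrial superoxide dismutase (r = 0.989, rho = 0.915), HESX1 (r = 0.987) and OR5D52P (r = 0.979). NR3C1 was followed most closely by CD44, the hyaluronan receptor (r = 0.963, rho = 0.867), EXOC5, an exocyst subunit (r = 0.963, rho = 0.964), and APLP2 (r = 0.961). HSD11B1 was followed by MRPS18A, a mitochondrial ribosomal protein (r = 0.985), UBQLN4 (r = 0.973) and TIMM50 (r = 0.971), and HSD11B2 by SLC39A5, a zinc transporter (r = 0.965), an identifier-only transcript and P2RX6 (r = 0.946). The 10 points share their arrays across genes, and cow 4 has the lowest or highest change of every member. Without cow 4, r between these named genes and their member lay between 0.876 (OR5D52P) and 0.974 (APLP2).

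Within a period the cows differed in sampling day, and no gene of the array passed the threshold for a slope on day in either period in limma (0 of 19444, 0%; 1100 genes early and 268 late at an unadjusted p under 0.05). FKBP5 had the only member slope with an unadjusted p under 0.05. Its early level was higher by 0.36 ± 0.16 per 10 days (SE; 95% interval 0.0078 to 0.71; p = 0.0459, adjusted p = 0.874 in limma). Without cow 4, sampled on day 49, the FKBP5 slope was 0.22 per 10 days (adjusted p = 0.857 in limma). In the late period the FKBP5 slope was 0.02 per 10 days (95% interval -0.04 to 0.08).

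The arrays were hybridised on 5 slides, and only slide 3 held both periods, with early cows 9 and 10 and late cows 1 and 2. Slides 1 and 2 held early and slides 4 and 5 late samples, so for most arrays slide and period cannot be told apart. On slide 3 alone, unpaired, the differences were -0.22 for NR3C1, -0.53 for HSD11B1, -0.32 for HSD11B2, 1.10 for FKBP5 and 0.39 for TSC22D3, the same signs as over all cows (adjusted p from 0.535 to 0.893 in limma). With slide as a random block the changes were -0.36, -0.77, -0.62, 0.79 and 0.46 in the same order, none past the threshold. With slide as a fixed block beside cow, where the estimate rests on few samples, the FKBP5 value was -0.80 ± 0.88, the TSC22D3 value -1.60 ± 1.01 and the HSD11B1 value 2.05 ± 2.21 (SE; adjusted p = 0.9999 for each in limma), opposite in sign to the paired values. HSD11B2 kept its sign at -0.89 ± 0.94, as did NR3C1 at -0.08 ± 0.79.

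**Figure D4:**
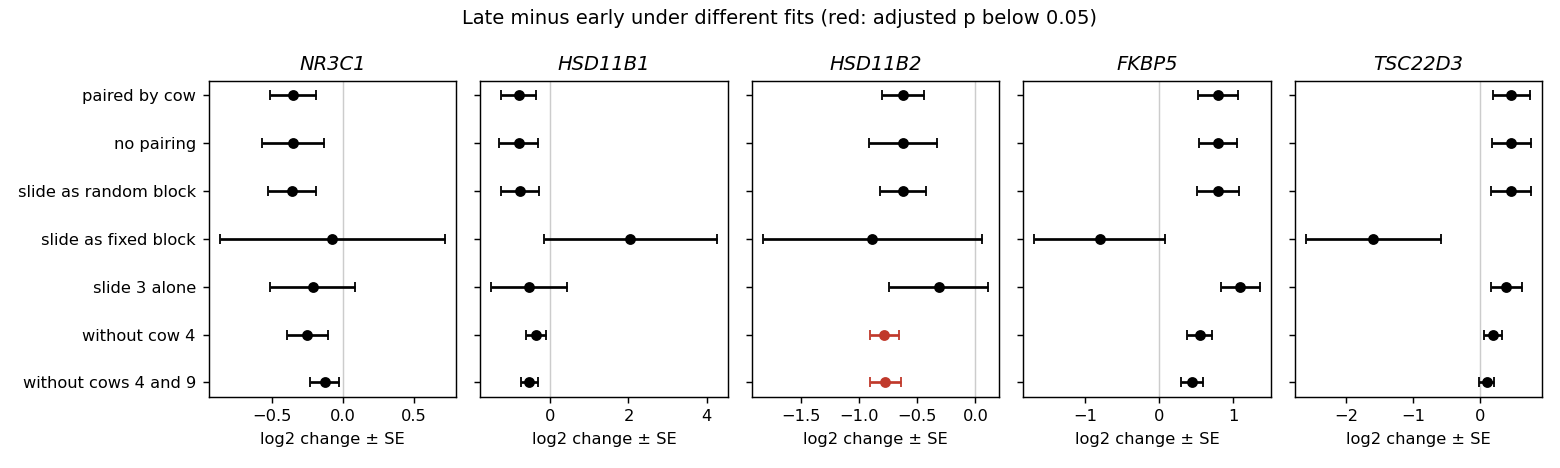
Late minus early log2 change ± SE of each gene in the fit paired by cow and under other fits; red marks an adjusted p below 0.05. HSD11B2 is past the threshold without cow 4 and without cows 4 and 9, and the values with slide as a fixed block have the widest bars and the opposite sign for HSD11B1, FKBP5 and TSC22D3.

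Around the receptor, 8 lists of the same pathway were counted in the fit over all genes, which had 1.31% of genes past the threshold. At an unadjusted p under 0.05 the same fit had 4380 of 19444 genes. The unadjusted counts of the lists are to be read beside that share. Of 106 list genes tested, 5 passed, and 4 of these are described. The chaperone complex that holds the unbound receptor had 16 genes tested and none past the threshold in limma (4 at an unadjusted p under 0.05), with a median change of -0.01. Its smallest p belonged to DNAJB1, a heat shock protein 40 cochaperone (0.28 ± 0.09, adjusted p = 0.117), and STUB1, a ubiquitin ligase (-0.31 ± 0.11, adjusted p = 0.139). The list of 20 receptor coregulators had a median change of -0.02.

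Genes that supply or remove cortisol outside the HSD11B enzymes numbered 6, none past the threshold in limma (1 at an unadjusted p under 0.05), with a median of 0.04. CYB5A, cytochrome b5, changed by 0.22 ± 0.07 (adjusted p = 0.116) and SRD5A1, a steroid 5-alpha reductase, by 0.25 ± 0.14 (adjusted p = 0.319). H6PD, which supplies HSD11B1 with its cofactor, did not pass the filter. Of 7 steroid synthesis genes 1 fell, STAR, which carries cholesterol into mitochondria, by 0.82 on the log2 scale (adjusted p = 0.0446, lower in 9 of 10 cows), and the list's median was 0.08. The 4 genes of the corticotropin-releasing hormone and melanocortin system had none past the threshold in limma (1 at an unadjusted p under 0.05) and a median of 0.11. Of these CRHBP, the hormone's binding protein, changed by -0.60 ± 0.22 (adjusted p = 0.146) and POMC, the precursor of corticotropin, by 0.19 ± 0.09 (adjusted p = 0.233). The other steroid receptors numbered 6, with none past the threshold (0 at an unadjusted p under 0.05) and a median of -0.03, and ESR2 and ESR1, the oestrogen receptors, changed by 0.69 ± 0.41 and -0.20 ± 0.16 (adjusted p = 0.333 and 0.473).

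Among 35 genes that glucocorticoids are known to raise in other tissues, 1 rose and the median change was -0.08. The riser was PCK1, which controls gluconeogenesis, by 1.27 ± 0.26 on the log2 scale (adjusted p = 0.0465 in limma, higher in 9 of 10 cows). In this list 14 estimates were above 0 and 21 below. Among 12 inflammatory genes that glucocorticoids are known to repress, 2 fell, and the median was -0.15. CXCL8, the neutrophil chemokine interleukin 8, fell by 1.15 on the log2 scale (adjusted p = 0.0424) and ICAM1, an adhesion molecule for leukocytes, fell by 0.91 (adjusted p = 0.0428), each lower in 10 of 10 cows. Without cow 4 none of the 5 list genes passed in limma, and leaving out any single cow left between 0 and 3 list genes past the threshold. Without cows 4 and 9, 2 passed, ICAM1 among them.

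In the early sample of cow 4, 51.3% of all genes were at an end of the early values. The share was 28.6% for the 7 steroid synthesis genes and 83.3% for the 6 other steroid receptors. The chaperone list had 12 of its 16 genes at their highest early value there and none at its lowest. The glucocorticoid-induced genes did not share a direction: of 35, 11 were at their lowest and 14 at their highest early value. The progesterone receptor PGR stood at -0.08, against -2.03 to -1.33 in the other 9 early samples. ESR1 stood at -3.51, against -5.61 to -4.58, and ESR2 at -3.67, against -2.05 to 0.33. NR3C2, the mineralocorticoid receptor that HSD11B2 shields from cortisol, stood at -5.10, below the -4.95 to -3.43 of the others.

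Markers of cell types moved with period and with these samples, and their part in the results was not tested. The summed level of 6 macrophage markers ran from 1.52 to 3.28 early and from 1.03 to 2.51 late. It was lower late in 10 of 10 cows, with CSF1R and CD14 its brightest members. The mean log2 level of the same 6 markers was also lower late in 10 of 10 cows, by 0.85 ± 0.62 on average (SD). Without cow 4 the summed level was lower in 9 of 9 cows, by 0.61 on average, a value not comparable with that of the mean level. Of the 6 macrophage markers 3 fell in limma, CD68 by 1.79 on the log2 scale (adjusted p = 0.00561), VSIG4 by 1.47 (adjusted p = 0.00411) and MSR1 by 0.85 (adjusted p = 0.0181), each in 10 of 10 cows. All 3 also passed without cow 4, without cow 9 and without both, and CD68 and VSIG4 passed without the pairing by cow. With slide as a fixed block, and on slide 3 alone, no gene of the array passed, so these 3 did not either. Over 10 cows, 5 of the 6 macrophage marker estimates were below 0 and 1 was above, at 0.12. The 9 stromal fibroblast markers, led by COL3A1 and DCN, ran from 8.33 to 8.86 early and from 8.10 to 8.57 late and were lower in 8 of 10 cows. Of these HAND2, a transcription factor of the stroma, fell by 0.87 (adjusted p = 0.0458 in limma) and did not pass without cow 4. The epithelial, leukocyte, red cell, endothelial and smooth muscle lists had none past the threshold in limma (2, 2, 1, 0 and 0 at an unadjusted p under 0.05). Of all 19444 genes, 4380 had an unadjusted p under 0.05. The 7 epithelial markers, led by EPCAM and KRT8, ran from 4.38 to 6.07 early and from 5.55 to 6.46 late and were higher in 7 of 10 cows. Early cow 4 was within the range of the other early samples for the epithelial sum (6.02) and above it for the stromal (8.86), smooth muscle (6.73) and macrophage (3.28) sums, and below it for the endothelial sum (2.03). Early cow 9, with the next lowest FKBP5 value, had the lowest epithelial sum (4.38) and a smooth muscle sum of 6.57, where the 8 cows other than 4 and 9 had 4.49 to 5.56. The mean log2 levels of 5 endothelial, 5 smooth muscle, 6 leukocyte and 2 red cell markers were higher late in 4, 4, 2 and 6 of 10 cows. Counts differed for the summed levels, which without cow 4 were higher late in 4, 5, 3 and 8 of 9 cows.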

How the data were processed

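Each array held 1 sample labelled with Cy3, per the labels' protocols. Per the file headers, the scans were quantified in Agilent Feature Extraction 10.5.1.1. The deposited intensity values are its processed signals, which are corrected for background and spatial trend array by array. The authors' deposited value table holds log2 values. Its columns correlated at 0.99995 or more with the values used here once each probe was centred on its median, so scale, centring and direction were known. It served as an alternative, with column medians from -0.153 to 0.051.

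Values were the log2 processed signal less the 75th percentile of its array and were tested in limma 3.58.1 (R 4.3.3; lmFit, eBayes, two-sided, Benjamini-Hochberg over 19444 genes, threshold 0.05) with cow as a fixed block. A gene was represented by its probe of highest mean among probes well above background on at least 8 of 20 arrays. Names came through a RefSeq table of ARS-UCD2.0, used for names only: 20595 probes by accession, 10745 by symbol, 376 by synonym and 1408 by gene number, while 10529 kept the design's name. The pairing comes from the design text, titles and animal numbers, and the source names of late samples carry other cow numbers, which no label explains. After the period means were removed, the early and late array of a cow correlated at -0.11 to 0.76 (median 0.42; above 0.1 in 8 of 10 cows), and arrays of different cows at a median of -0.03. Correlations used 100000 permutations (exact where cows were left out) and the enzyme difference an exact sign-flip test. Intervals cover 95%, and the number of arrays limits precision. Named genes were all 5 members; in each pathway list up to 4 genes past the threshold, or the 2 of smallest p; the 3 genes most like each member; and the 2 brightest markers of each cell type, of which the report names those of 3 lists. NR3C2, PGR, H6PD, CD68, VSIG4, MSR1 and HAND2 were named after their values were seen. The result of 1 list gene is not reported here. The members and lists were chosen with earlier results of these data known. Alternatives were no pairing, cow as a random effect, normexp (offset 50), quantile and median scaling, the deposited table, other filters and probe rules, slide as a block, a trended and robust variance and leaving out each cow. Leaving out cows 4 and 9, and leaving out cow 4 with each probe on its own, were added after seeing the data.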

Additional observations from a re-analysis of the deposited data

Results flagged for a closer look

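Of 16 groups of 10 values checked (early level, late level and change of each gene, and the enzyme difference), 8 had an end value whose gap to its neighbour, divided by the whole range, was above Dixon's 95% limit for 10 values. Chance gives this in about 1 in 20 groups. All 8 end values came from cow 4, so they are not independent of each other. At the early level the gap share was 0.519 for HSD11B1 (level 0.12), 0.77 for HSD11B2 (0.60), 0.514 for FKBP5 (1.17) and 0.652 for TSC22D3 (1.07). For the change from early to late it was 0.549 for HSD11B1 (change -4.78), 0.487 for FKBP5 (3.01) and 0.599 for TSC22D3 (2.94). For the HSD11B1 change minus the HSD11B2 change it was 0.646, at a value of -5.57. The early NR3C1 level of cow 4, -2.72, gave 0.464, just under the limit. None of the late levels was past it, the late sample of cow 4 included.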

How the results depend on the processing

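The count of genes past the threshold, 255, was 118 without the replicate block (no pairing by cow), 720 with cow as a random effect, 115 with no filter, 38 with slide as a random block, 0 with slide as a fixed block and 0 on slide 3 alone, and 35 (without cow 10) to 153 (without cow 5) when 1 cow was left out. No member passed except HSD11B2, when cow 4 was left out and when cows 4 and 9 were left out (1 of 5, -0.77), so leaving out 1 cow gave 0 to 1 member past the threshold. The fit without the pairing gave the same changes and adjusted p of 0.264 for HSD11B2 and 0.122 for FKBP5, and cow as a random effect gave FKBP5 an adjusted p of 0.0589. Leaving out 1 cow gave changes of -0.42 to -0.25 for NR3C1, -1.02 to -0.37 for HSD11B1, -0.78 to -0.54 for HSD11B2, 0.55 to 0.92 for FKBP5 and 0.19 to 0.57 for TSC22D3. With slide as a fixed block HSD11B1 turned to 2.05, FKBP5 to -0.80 and TSC22D3 to -1.60, and the cause was not tested. The enzyme difference turned to 0.043 under normexp and to 0.23 without cows 4 and 9, and ran from -0.42 to 0.42 when 1 cow was left out. List genes past the threshold numbered 5, then 3 without the replicate block, 0 with slide as a fixed block, as a random block or on slide 3 alone, 0 to 3 with 1 cow left out (3 without cow 5) and 2 without cows 4 and 9. Member pairs past the threshold numbered 1, then 2 under normexp, scaling to the median of detected probes or the mean of a gene's probes, 1 to 3 with 1 cow left out (3 without cow 3) and 0 without cows 4 and 9. No member slope passed under any alternative run. When probes were tested singly and cow 4 was left out, both HSD11B2 probes passed (-0.78 and -0.91), the second NR3C1 probe turned to 0.00053, and the other probes of the 5 genes kept their sign and did not pass. The second NR3C1 probe, well above background on 4 of 10 late arrays, limits what it can show.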
